A study of Mus musculus with 11 samples.

Results

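The collagens, laminins and basement membrane genes described here are 62 of the 55228 gene rows of the deposited table. They were chosen by name: 44 collagen chains, 11 laminin chains, and 7 further genes, which are the linkers Nid1, Nid2 and Hspg2, the matricellular gene Sparc, the collagen chaperone Serpinh1 and the collagen receptors Ddr1 and Ddr2. The libraries are RNA-seq of mouse embryonic stem cells of EN52.9.1, a CTCF-AID line in which endogenous CTCF, a chromatin insulator protein with zinc fingers, carries an auxin-inducible degron. All groups share this line, grown in serum with leukemia inhibitory factor (LIF). EV cells without auxin, labelled untreated (wild-type), gave 3 libraries (EV untreated). EV cells with 500 µM of the auxin analogue indole-3-acetic acid, labelled as depleted of endogenous CTCF, gave 2 libraries (EV auxin). Cells given the same auxin dose and reintroduced FL CTCF gave 3 libraries (FL auxin), and cells given auxin and CTCF with the H373R substitution gave 3 libraries (H373R auxin), whose titles read ZF4. What EV and FL stand for, how the reintroduced CTCF was expressed and how long auxin was given are not spelled out in the labels used here. The comparisons ask which matrix transcripts differ after CTCF loss, and which differ when each form of CTCF is returned. No FL or H373R library lacked auxin, so an effect of the returned CTCF cannot be told apart from other differences between the cells. In EV cells, auxin exposure and CTCF loss cannot be told apart either. Phrases such as rose after auxin or fell with FL name the groups compared, not a cause.

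A basement membrane is a sheet of extracellular matrix under epithelia. Laminins are trimers of an alpha, a beta and a gamma chain that polymerize into one network, and collagen IV, a trimer of alpha chains, forms another. Nidogens and perlecan (Hspg2) link the networks. Primitive endoderm, an early extra-embryonic lineage that can arise in embryonic stem cell cultures, is known for secreting laminin and collagen IV. Fibrillar collagens such as collagen I are made mostly by mesenchymal cells, and discoidin domain receptors (Ddr1, Ddr2) are kinases activated by collagen.

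The total count per library was 13465241 to 29902246, and the 62 genes took 0.303% to 0.333% of the counts in EV untreated libraries, 0.304% and 0.319% in EV auxin, 0.372% to 0.405% in FL and 0.352% to 0.379% in H373R libraries. EV untreated replicate 1 stood apart, with a chi-square per degree of freedom of 15.6 and 14.9 against the other replicates of its group, where all other pairs within groups had 1.93 to 4.77. Counts that rest on EV untreated are therefore also given without it. Ctcf, whose protein and not whose transcript the degron acts on, had group means of 321 to 361 CPM, passed the test in none of the 6 comparisons and gave no check of the labels. Each of the 10 pluripotency markers was tested, and their summed level was 6028 to 6679 CPM (counts scaled by TMM to a common library size) over the 11 libraries. The labels do not say that replicates came from separate cultures, so p-values measure only the spread between these libraries. In bulk RNA, fewer cells of a type and less RNA per cell cannot be told apart.

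Of the 62 genes, 52 had enough counts to be tested, and 16420 genes were tested in all. The other 10 (Col10a1, Col15a1, Col19a1, Col24a1, Col25a1, Col28a1, Col4a3, Col4a4, Col4a6 and Lamc3) had at most 11 counts in any library, and Col10a1 had none. On the per-length TPM scale (transcript abundance corrected for gene length), 12 genes held 89.98% of the summed level of all 62 over the libraries. These were Nid2, Sparc, Lamc1, Serpinh1, Col18a1, Nid1, Lamb1, Col4a1, Hspg2, Lama1, Lama5 and Col4a2, in falling order of their mean. Nid2 (nidogen 2) led in EV untreated libraries with 318 ± 5.54 TPM (SD, n = 3, as for all EV untreated, FL and H373R means, with n = 2 for EV auxin), followed by Lamc1 (laminin gamma 1, the gamma chain of most laminins) with 300.2 ± 4.96 and Sparc (a collagen-binding glycoprotein) with 289.5 ± 1.61. Their order at these neighbouring ranks was not the same in all groups, since in EV auxin Sparc had 353 ± 7.46 TPM, Nid2 333 ± 13.2 and Lamc1 264 ± 12.4. Collagen chains outside basement membranes were far below Nid2, Lamc1 and Sparc, but not all were below the collagen IV chains. In EV untreated Col9a2 had 28.4 ± 2.42 TPM, about the level of Col4a2 with 27.9 ± 2.32. Col5a1 had 17.7 ± 1.60 TPM, Col1a1 15.6 ± 2.34 and Col1a2 1.18 ± 0.0988.

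The promoters of several of these genes are shown because the study's title names CTCF as a protein that binds G-quadruplexes, four-stranded structures of G-rich DNA, and because each of these genes was called in at least 1 of the comparisons that follow. RefSeq windows (GRCm38.p6, from 250 bases before to 50 after the start) were found for 46 of the 62 genes, 38 of them tested; none was found for Lama1, Lamc1, Nid2 and others. Each stretch below is the longest part of a window before the RefSeq start that overlaps no annotated exon. Capitals mark a G-quadruplex motif, 4 runs of at least 3 G on one strand with 1 to 7 bases between them. The last capitals of Hspg2 are the start of a motif that runs on past the end of the stretch shown. Serpinh1 (chr7:99353240-99353489, minus strand), Nid1 (chr13:13437352-13437550, plus strand), Hspg2 (chr4:137468553-137468768, plus strand) and Lamb1 (chr12:31265043-31265233, plus strand) rose with FL CTCF. Ddr2 fell with both forms of CTCF, and its stretch (chr1:170088945-170089194, minus strand) lies before a RefSeq start inside the longer annotated gene. Col27a1 fell after auxin, and its stretch (chr4:63215162-63215411, plus strand) also lies inside the longer annotated gene. Coordinates are mm10.
Serpinh1: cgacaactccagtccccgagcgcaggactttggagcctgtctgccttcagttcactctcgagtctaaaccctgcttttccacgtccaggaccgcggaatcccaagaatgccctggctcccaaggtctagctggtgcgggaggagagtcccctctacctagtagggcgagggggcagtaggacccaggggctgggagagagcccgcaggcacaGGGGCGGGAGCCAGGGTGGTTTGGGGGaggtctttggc
Nid1: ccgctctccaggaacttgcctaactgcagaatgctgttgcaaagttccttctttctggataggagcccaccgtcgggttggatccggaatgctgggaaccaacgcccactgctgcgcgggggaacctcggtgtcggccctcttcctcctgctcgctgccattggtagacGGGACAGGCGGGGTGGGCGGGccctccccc
Hspg2: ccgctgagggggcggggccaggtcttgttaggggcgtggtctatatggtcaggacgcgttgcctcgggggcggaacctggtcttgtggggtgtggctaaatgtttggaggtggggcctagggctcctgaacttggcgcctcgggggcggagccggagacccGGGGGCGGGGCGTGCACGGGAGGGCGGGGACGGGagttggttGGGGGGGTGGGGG
Lamb1: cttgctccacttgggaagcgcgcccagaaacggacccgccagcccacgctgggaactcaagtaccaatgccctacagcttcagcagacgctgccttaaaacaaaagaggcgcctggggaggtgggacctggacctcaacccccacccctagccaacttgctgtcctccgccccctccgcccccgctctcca
Ddr2: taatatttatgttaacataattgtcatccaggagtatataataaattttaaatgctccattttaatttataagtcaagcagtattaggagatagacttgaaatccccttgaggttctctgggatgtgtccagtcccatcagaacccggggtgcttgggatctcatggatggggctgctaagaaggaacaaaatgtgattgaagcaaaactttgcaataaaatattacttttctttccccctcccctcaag
Col27a1: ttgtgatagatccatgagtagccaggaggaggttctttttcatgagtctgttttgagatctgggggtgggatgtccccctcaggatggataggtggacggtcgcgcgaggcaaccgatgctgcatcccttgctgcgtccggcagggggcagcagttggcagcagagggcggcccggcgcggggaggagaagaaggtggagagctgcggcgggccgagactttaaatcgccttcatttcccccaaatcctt
Serpinh1, Nid1 and Hspg2 hold the motif in these stretches, whereas Lamb1, Ddr2 and Col27a1 do not.

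Among tested members with a window, 18 of 38 (47.4%) held the motif on either strand in any window, against 3753 of 11769 tested genes (31.9%). Counted by window, the motif was in 42.2% of those of tested members and 28% of those of tested genes. Of all 32851 windows 6110 (18.6%) held it. Of the members with a window, the motif was in 4 of 8 that rose with FL against EV auxin, 2 of 11 that fell and 12 of 19 that were not called, beside 35.4%, 33.2% and 31.1% of all tested genes with a window. In H373R against EV auxin it was in 2 of 5 that rose, 0 of 7 that fell and 16 of 26 that were not called. The shares of all tested genes with a window were 36.0%, 31.6% and 31.4%. The CTCF core word, CCANNAG joined directly to NNGGC, was in 1 of 45 windows of tested members (2.22%), that of Col4a5, against 2.76% of the windows of all tested genes. The GC box GGGCGG, which can overlap a G-quadruplex motif, was in 66.7% of these windows (60.7% for all tested genes, 35.7% of all windows), and the TATA box TATAAA in 11.1% (7.25% for all tested genes, 13.6% of all windows). A shorter word, CAGGGGGC, searched after the sequences had been seen, was in the windows of Col27a1 and Col16a1, 4.44% of the 45 windows against 4.53% for all tested genes and 2.87% of all windows. All words were searched on both strands, and a match is a description of letters, not of binding.

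**Figure D1:**
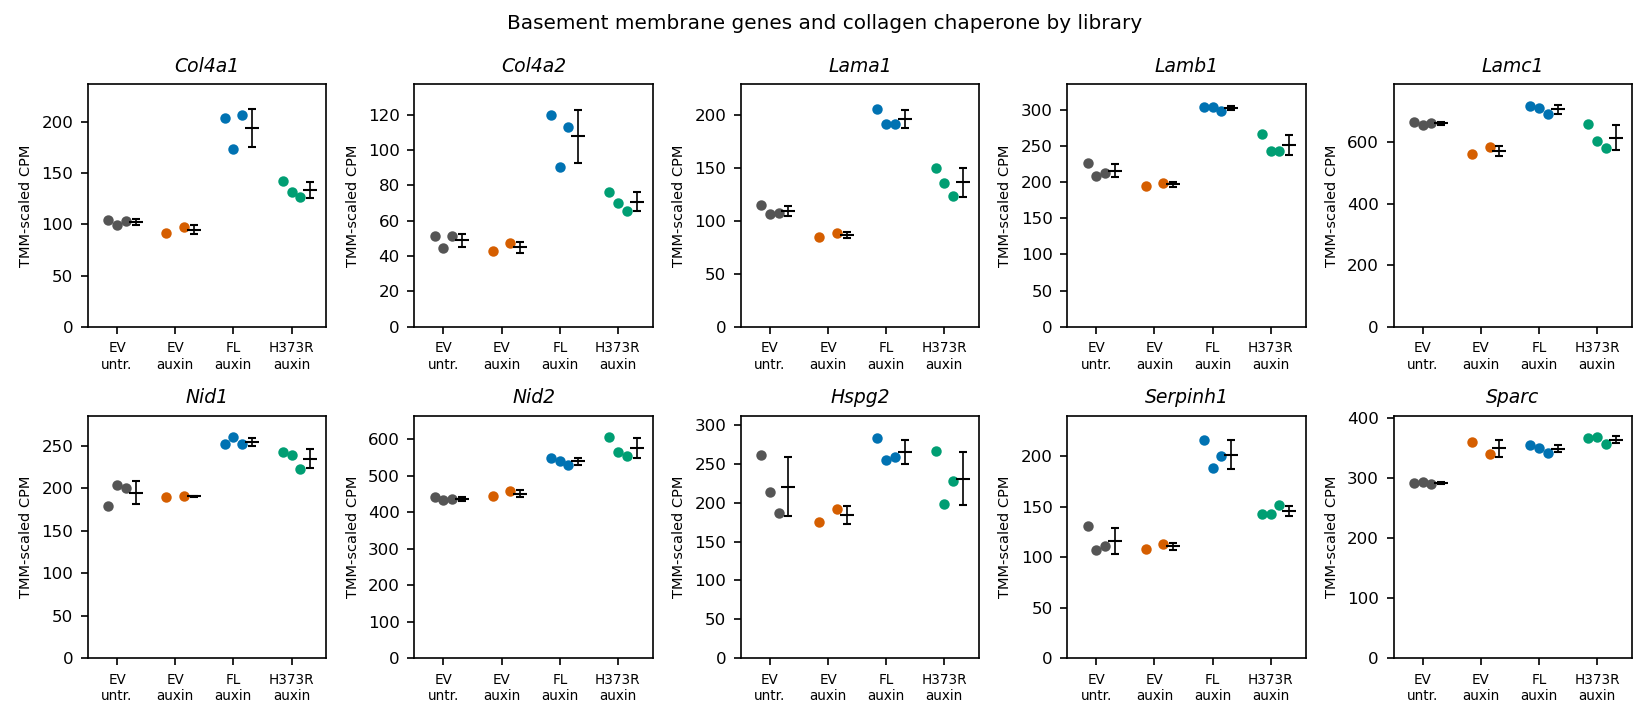
Basement membrane genes and the collagen chaperone, with the level in TMM-scaled CPM on the vertical axis and the 4 groups on the horizontal axis; points are libraries, and bars are the mean ± SD beside them. The 3 FL libraries lie above every other library for Col4a1, Col4a2, Lama1, Lamb1, Lamc1, Nid1 and Serpinh1, while Sparc is lowest in the 3 EV untreated libraries.

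The first comparison asked what changed when endogenous CTCF was depleted. Auxin in EV cells shifted the laminins in both directions: Lama3, Lama4 and Lamb3 rose, while Lama1 and Lamc1, the alpha and gamma chains of the early embryonic laminin, fell. Of the 6 collagen VI chains 5 rose, Sparc rose, and Col18a1, Col11a1 and Col27a1 fell. Of the 52 tested members, 13 rose and 5 fell, 34.6% in all, beside 20.7% of all 16420 tested genes (11.3% higher and 9.40% lower), at a Benjamini-Hochberg adjusted p under 0.05 in the quasi-likelihood test of edgeR. The median log2 fold change was 0.04 over the members and 0.01 over all genes, and the median size of the change was 0.26 and 0.16. Without EV untreated replicate 1 the count was 21, while that over all genes went from 3392 to 5444. Without EV auxin replicate 1 or 2 it was 11, with 2036 and 1569 genes called in all, with the lone library of that arm assumed to vary like the other groups.

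Lama1 (laminin alpha 1; chr17:67697259-67822647) had 115, 107 and 107 CPM in the EV untreated libraries and 84.4 and 88.8 CPM in EV auxin. Both auxin libraries lay below all untreated ones, and the gene fell by 0.34 ± 0.0744 (SE) on the log2 scale (edgeR adjusted p = 0.00429). Lamc1 (chr1:153218922-153332786) had 664, 655 and 663 CPM without auxin and 560.2 and 583 with it, a fall of 1.16-fold that also did not overlap (edgeR adjusted p = 0.0118). Lamb1, the beta 1 chain of the same trimer, had 226, 209 and 212 against 194 and 199 CPM and missed the threshold (edgeR adjusted p = 0.101). Without EV auxin replicate 1 the falls of Lama1 and Lamc1 missed it too (edgeR adjusted p = 0.0638 and 0.125). Col4a1 and Col4a2, the main collagen IV chains, had 94.6 ± 4.30 and 45.0 ± 3.09 CPM after auxin against 102 ± 2.74 and 49.1 ± 3.70 before (edgeR adjusted p = 0.334 and 0.447). Nid1, Nid2, Hspg2 and Serpinh1 did not pass the test either.

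Lama3 and Lamb3, the alpha 3 and beta 3 chains of laminins that anchor epithelia such as skin, rose after auxin. Lama3 (chr18:12333819-12583013) had 12.5, 14.2 and 14.2 CPM in EV untreated and 21.4 and 25.0 in EV auxin, 1.71-fold higher (log2 fold change 0.78 ± 0.0954, SE; edgeR adjusted p = 3.01e-05). Its groups did not overlap, and the call held in every alternative fit. Lamb3 had 7.66, 5.73 and 6.57 against 7.53 and 11 CPM, with overlapping groups (edgeR adjusted p = 0.0385). The Lamb3 call was lost in 13 alternatives, and the edgeR adjusted p was 0.695 without EV auxin replicate 2, 0.109 and 0.0862 without EV untreated replicates 2 and 3, 0.0503 without FL replicate 2, and 0.0627, 0.0532 and 0.0619 without H373R replicates 1, 2 and 3. Lama4 (laminin alpha 4, known from vessel basement membranes) had 3.06, 3.43 and 2.83 against 4.73 and 4.57 CPM and rose 1.5-fold (edgeR adjusted p = 0.00364).

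Collagen VI, a microfibrillar collagen that sits beside basement membranes, was low but rose as a group. Its 6 chains summed to 17.0 to 17.5 CPM in EV untreated and 26.0 and 27.4 CPM in EV auxin. Col6a5 (chr9:105856078-105960643) had 4.03, 4.26 and 5.40 against 8.84 and 8.76 CPM, 1.92-fold higher (edgeR adjusted p = 9.8e-05). Col6a6 (chr9:105687809-105828160) had 2.40, 3.03 and 2.46 against 5.19 and 4.57 CPM, 1.86-fold higher (edgeR adjusted p = 0.00546, and 0.0573 without EV auxin replicate 1). Neither overlapped between the groups. Col6a1, Col6a2 and Col6a3, the chains of the classical trimer, rose 1.89-fold, 1.70-fold and 1.64-fold from means of 0.876 to 1.90 CPM (edgeR adjusted p = 0.0449, 0.00889 and 0.0338). Without EV auxin replicate 2 all 3 missed the threshold (edgeR adjusted p = 0.226, 0.132 and 0.188), and Col6a1 and Col6a3 also missed it without EV auxin replicate 1 (0.15 and 0.132), without EV untreated replicate 2 (0.0768 and 0.0798) or 3 (0.087 and 0.0914), and without H373R replicate 1 (0.0653 and 0.0501). Col6a4 had 6.15 ± 0.267 and 6.39 ± 0.642 CPM and was not called (edgeR adjusted p = 0.874). Col6a6, Col6a5 and Col6a4 lie in a row on chromosome 9 on the same strand, with 27.9 and 28.8 kb between them.

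Other single genes moved after auxin. Sparc (chr11:55394500-55423183) had 291, 294 and 290.2 CPM in EV untreated and 359 and 339 in EV auxin, 1.20-fold higher with no overlap (edgeR adjusted p = 0.000766). Col18a1, a basement membrane collagen whose end fragment is endostatin, had 349, 328 and 329 against 276 and 287 CPM and fell 1.19-fold (edgeR adjusted p = 0.00382, and 0.0623 without EV auxin replicate 1). Col26a1 rose from 10.7, 9.84 and 10.5 to 12.3 and 14.5 CPM (edgeR adjusted p = 0.0109, and 0.282 without EV auxin replicate 2). The largest change among members was in Col27a1, a fibrillar collagen of cartilage, which was singled out after its values were seen. It had 67, 28 and 60 counts in EV untreated libraries and 3 and 5 in EV auxin, and it stayed at 2 to 11 counts in all FL and H373R libraries. The log2 fold change after auxin was -3.33 ± 0.435 (SE; edgeR adjusted p = 5.47e-05). Col14a1, a fibril-associated collagen, rose 3.07-fold from 0.354 ± 0.0762 CPM (edgeR adjusted p = 0.000919). Col7a1, the anchoring fibril collagen, rose 1.63-fold (edgeR adjusted p = 0.00744, and 0.0605 and 0.0569 without EV auxin replicates 1 and 2), and Col11a1 fell 1.46-fold (edgeR adjusted p = 0.00881, and 0.123 without EV auxin replicate 2).

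Markers of other lineages were called in both directions after auxin. The 10 parietal endoderm markers, all tested, summed to 127 to 148 CPM in EV untreated and 158 and 172 in EV auxin libraries, and 4 rose and 1 fell. They summed to 171 to 183 CPM in FL and 192 to 205 in H373R libraries. Of 9 mesoderm and endothelium markers 8 were tested (Hbb-bh1 was at 0 in every library), and they summed to 207 to 220 CPM in EV untreated, 275 and 284 in EV auxin, 194 to 208 in FL and 221 to 227 in H373R libraries, with 3 rising and 1 falling after auxin. Pecam1, which pluripotent cells also express, went from 196 ± 5.03 to 262 ± 4.82 CPM and made up most of the rise of that sum, while Tek fell. Of the 5 tested fibroblast and feeder markers 1 rose (Pdgfrb) and 3 fell (Thy1, Acta2 and Fbn1), and of the 10 pluripotency markers 2 rose and 3 fell. The 6 neural markers summed to 258 to 292 CPM in EV untreated, 285 and 292 in EV auxin, 229 to 257 in FL and 251.4 to 257 in H373R libraries, and 1 rose and 2 fell after auxin. The 10 trophoblast markers, of which 6 were tested and Tpbpa was at 0 in every library, summed to 141 to 157 CPM, 136 and 138, 119.5 to 132, and 138 to 141 in the same groups, and 1 rose and 1 fell after auxin. Beside these counts, 11.3% of all tested genes rose and 9.40% fell after auxin. On lists this short such counts are not read as lineage shifts. The part of these markers in the changes after auxin was not tested.

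**Figure D2:**
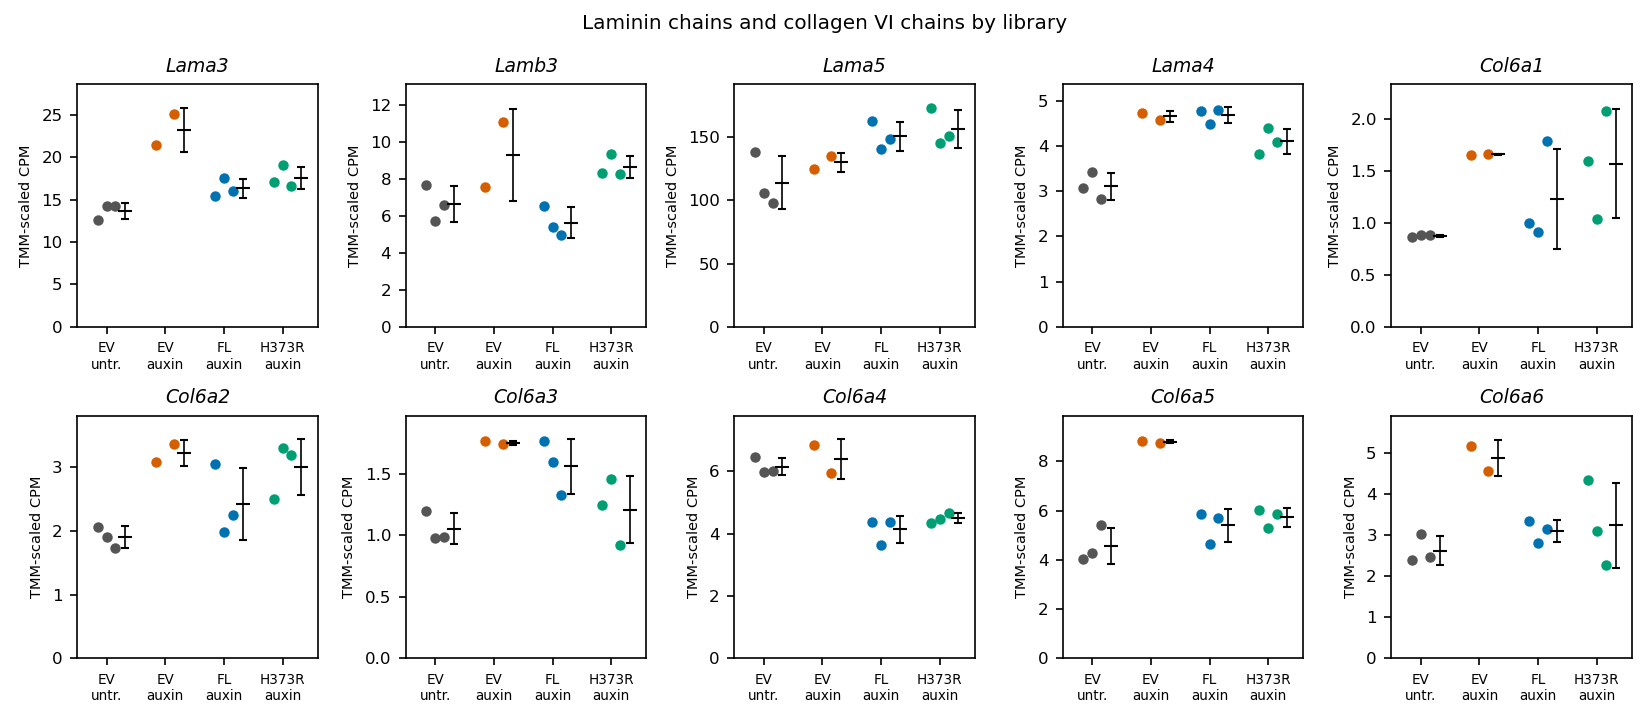
Laminin alpha 3, beta 3, alpha 5 and alpha 4 chains and 6 collagen VI chains, in TMM-scaled CPM by group; points are libraries and bars the mean ± SD. Lama3, Lama4, Col6a5 and Col6a6 are higher in both EV auxin libraries than in any EV untreated library.

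The second comparison asked what differed when FL CTCF was returned to auxin-treated cells. The core basement membrane genes rose together: both collagen IV chains and Lama1 rose 2.05-fold to 2.40-fold, and Lamb1, Lamc1, Nid1, Nid2, Hspg2 and the chaperone Serpinh1 rose by less. Ddr2, the collagen VI chains Col6a4, Col6a5 and Col6a6, and Lama3, Lamb3, Col17a1, Col22a1 and Col26a1 fell. Of the 52 members 12 rose and 14 fell, 50% in all, beside 24.5% of all tested genes (11.1% higher and 13.4% lower). The median log2 fold change was -0.03 over members and -0.01 over all genes, and the median size of the change was 0.49 and 0.19. The count was 28 without EV untreated replicate 1, where that over all genes went from 4016 to 5800, and 18 without EV auxin replicate 2, where it was 1879. All 3 contrasts with EV auxin share its 2 libraries.

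Lama1 had 206, 191 and 191 CPM in FL libraries against 84.4 and 88.8 CPM in EV auxin, 2.26-fold higher (log2 fold change 1.18 ± 0.0757, SE; edgeR adjusted p = 1.2e-07). Lamb1 (chr12:31265234-31329644) had 303, 303 and 299 against 194 and 199 CPM, 1.53-fold higher (edgeR adjusted p = 2.6e-06). Lamc1 had 717, 711 and 689.8 against 560.2 and 583 CPM, 1.24-fold higher (edgeR adjusted p = 0.00092). In each of these 3 chains every FL library lay above every other library of the series. Lama5, the alpha chain that pairs with the same beta and gamma chains in the later embryo, had 163, 141 and 148 against 125 and 135 CPM and did not pass (edgeR adjusted p = 0.206). The ratio of Lama1 to Lama5 on the TPM scale was 0.796 and 0.772 in EV auxin, 1.48, 1.60 and 1.52 in FL, 1.02, 1.10 and 0.958 in H373R, and 0.978, 1.18 and 1.29 in EV untreated libraries. It was thus lowest in EV auxin and highest in FL, with the other groups between and overlapping each other, and was not tested.

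Col4a1 (chr8:11198423-11312826, minus strand) and Col4a2 (chr8:11312805-11449287, plus strand) are transcribed away from each other and overlap by 22 bases. Col4a1 had 204, 173 and 206 CPM in FL and 91.6 and 97.7 in EV auxin libraries, 2.05-fold higher (log2 fold change 1.04 ± 0.0752, SE; edgeR adjusted p = 3.06e-07). Col4a2 had 119.7, 90.7 and 113 against 42.8 and 47.2 CPM, 2.40-fold higher (edgeR adjusted p = 1.56e-06). For both genes FL replicate 2 was the lowest of its group and still above every library of the other groups. On the TPM scale the ratio of Col4a1 to Col4a2 was 1.90 and 1.84 in EV auxin, 1.79 to 1.96 in EV untreated, 1.51 to 1.69 in FL and 1.65 to 1.71 in H373R libraries. Col4a5, a chain of other collagen IV trimers, had 0.591 ± 0.153 CPM in FL and 0.490 ± 0.129 in EV auxin (edgeR adjusted p = 0.706).

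Serpinh1 (Hsp47, the endoplasmic reticulum chaperone that folds collagen; chr7:99345376-99353239) had 216, 188 and 199.9 CPM in FL and 108 and 113 in EV auxin libraries, 1.82-fold higher (log2 fold change 0.86 ± 0.0803, SE; edgeR adjusted p = 3.89e-06). Nid1 (chr13:13437551-13512269) had 252, 259.8 and 252 against 190.1 and 191 CPM, 1.34-fold higher (edgeR adjusted p = 0.000193), and Nid2 (chr14:19751265-19811787) had 548, 541 and 529 against 444 and 457 CPM, 1.20-fold higher (edgeR adjusted p = 0.00148). None of these groups overlapped. An exon of Nid2 overlaps Rtraf, and one of Nid1 overlaps Gm48682, on the opposite strand, and whether counting used strand is not given in the sources used here. Exons of other members, among them Lama3, Col6a4, Col6a6, Col22a1 and Ddr1, also overlap genes on the opposite strand. Hspg2 (perlecan; chr4:137468769-137570630) had 283, 255 and 258 against 175 and 192 CPM, 1.44-fold higher (edgeR adjusted p = 0.00608, and 0.0786 without EV auxin replicate 1). Sparc had 354, 349.7 and 342 against 359 and 339 CPM and was not called (edgeR adjusted p = 0.976).

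Markers of primitive endoderm moved with this group. The 16 markers, all tested and none at 0 in every library, summed to 296 to 323 CPM in FL, 187 to 229 in H373R, 114 and 122 in EV auxin and 126 to 134 in EV untreated libraries. Of the 16, 14 rose and 1 (Hnf4a) fell in FL against EV auxin, and 13 rose and 0 fell in H373R against EV auxin. Gata6, a transcription factor that specifies this lineage, had 4.48 ± 0.292 CPM in EV auxin, 18.1 ± 0.322 in FL, 10.8 ± 0.555 in H373R and 4.21 ± 0.0393 in EV untreated libraries. The collagen IV chains summed to 264 to 324, 194 to 219, 135 and 146, and 145 to 156 CPM in the same groups, so that both sums were highest in FL and next in H373R. The part of these markers in the result was not tested. Of 12 fibroblast and feeder markers 5 were tested, and Dcn, Lum, Postn, Fap and S100a4 had at most 3 counts in every library. With FL 3 of the 5 rose and 0 fell, and with H373R 4 rose and 0 fell against EV auxin. The sum of the list was 88.8 to 94.3 CPM in FL, 85.9 to 88.9 in H373R, 67.7 and 68.7 in EV auxin and 68.9 to 74.2 in EV untreated libraries. The pluripotency markers summed to 6234 to 6410 CPM in FL and 6052 and 6336 in EV auxin libraries, but 3 of the 10 rose and 3 fell. Nanog went from 680.2 ± 18.7 CPM in EV auxin to 535 ± 5.71 in FL, Zfp42 from 725 ± 29.8 to 587 ± 10.8, and Dppa5a from 579.9 ± 36.1 to 784 ± 51 (edgeR adjusted p = 0.00107, 0.000457 and 0.000274).

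**Figure D3:**
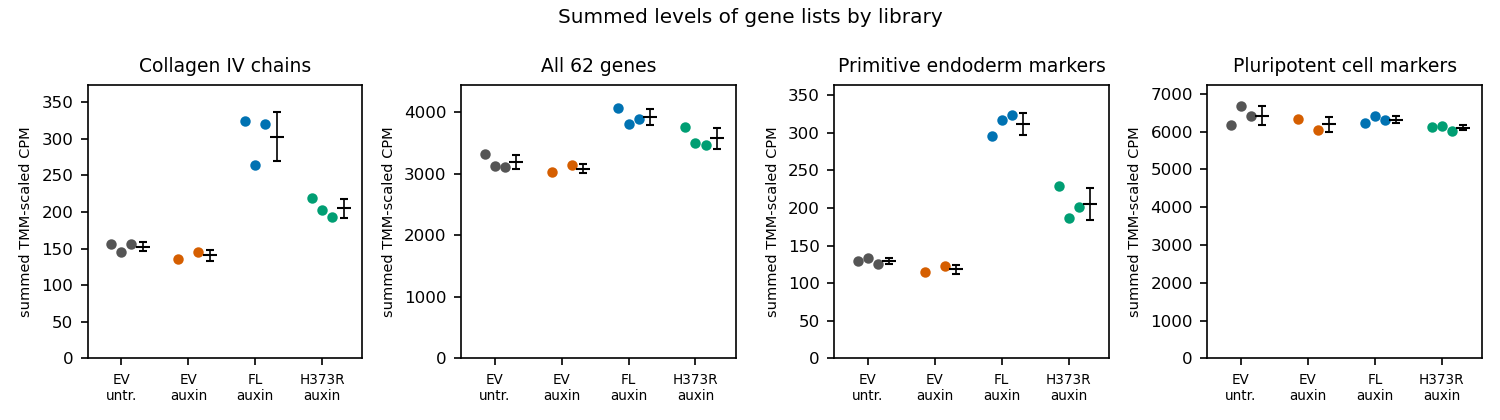
Summed level in TMM-scaled CPM of the collagen IV chains, of all 62 genes, of 16 primitive endoderm markers and of 10 pluripotency markers, by group; points are libraries and bars the mean ± SD. The collagen IV, 62-gene and primitive endoderm sums are highest in the 3 FL libraries, and the pluripotency sum lies between 6028 and 6679 in all libraries.

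Among genes that fell with FL, Ddr2 had the smallest adjusted p. Ddr2 (chr1:169972307-170110762), a receptor for fibrillar collagen, had 14.4, 14.8 and 15.7 CPM in EV untreated, 16.1 and 15.5 in EV auxin, 5.68, 5.85 and 6.37 in FL and 6.93, 7.36 and 6.73 in H373R libraries. The FL and H373R libraries lay below all EV libraries, while auxin in EV cells gave no call (edgeR adjusted p = 0.57). The fall was 2.64-fold with FL (log2 fold change -1.40 ± 0.0942, SE; edgeR adjusted p = 1.7e-07) and 2.26-fold with H373R (log2 fold change -1.17 ± 0.0886, SE; edgeR adjusted p = 3.32e-06). An exon overlaps 3110045C21Rik on the opposite strand. Ddr1 (chr17:35681567-35704621), the epithelial discoidin domain receptor, had 46.8, 36.6 and 38.1 CPM in EV untreated, 43.2 and 48.2 in EV auxin, 43.4, 38.2 and 40.1 in FL and 50.4, 48.6 and 49.4 in H373R libraries. The only call for Ddr1 in the 6 comparisons was H373R above EV untreated, by 1.22-fold (edgeR adjusted p = 0.0108, 0.0519 without EV untreated replicate 3 and 0.05 without H373R replicate 1).

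Lama3 had 15.4, 17.5 and 16.0 CPM in FL libraries, below both EV auxin libraries, and fell 1.44-fold (edgeR adjusted p = 0.0013, and 0.0526 without EV auxin replicate 2). Lamb3 had 6.54, 5.39 and 4.95 CPM and fell 1.67-fold (edgeR adjusted p = 0.00548, and 0.21 without EV auxin replicate 2). Col6a5 had 5.87, 4.63 and 5.71 CPM in FL against 8.84 and 8.76 in EV auxin and fell 1.60-fold (edgeR adjusted p = 0.002). Col6a4 fell 1.51-fold (edgeR adjusted p = 0.00266). Col6a6 fell 1.54-fold (edgeR adjusted p = 0.0417), a call lost in 10 alternatives, with an edgeR adjusted p of 0.2 and 0.115 without EV auxin replicates 1 and 2, 0.0688, 0.1 and 0.0875 without FL replicates 1, 2 and 3, and 0.0604 without H373R replicate 2.

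Col17a1, a transmembrane collagen of hemidesmosomes, fell 3.16-fold with FL, from 3.23 ± 0.515 to 1.01 ± 0.158 CPM (edgeR adjusted p = 5.21e-05). Col22a1, a collagen of tissue junctions, had 6.13, 6.31 and 6.06 CPM in EV untreated, 4.96 and 5.31 in EV auxin, 2.34, 2.13 and 2.70 in FL and 3.61, 3.02 and 3.65 in H373R libraries. The 4 groups did not overlap, and the fall with FL was 2.13-fold (edgeR adjusted p = 8.07e-05). Col26a1 had 7.40, 8.43 and 8.31 CPM in FL and 7.66, 7.03 and 7.85 in H373R libraries, below all EV libraries, and fell 1.68-fold with FL (edgeR adjusted p = 0.000136). Col3a1, a fibrillar collagen of soft tissue, rose 3.14-fold with FL, from 1.03 ± 0.246 to 3.25 ± 0.727 CPM (edgeR adjusted p = 0.000304), and one of its exons overlaps Gm47302 on the same strand. Its neighbour Col5a2, 24.6 kb away on the opposite strand, was not called (edgeR adjusted p = 0.137). Col1a1 rose 1.39-fold (edgeR adjusted p = 0.0133, 0.131 without EV auxin replicate 1 and 0.062 without FL replicate 1). Col9a1, Col9a2, Col16a1, Col5a3 and Col11a1, chains of cartilage and fibril-associated collagens and of collagen V, fell by 0.52 to 1.52 on the log2 scale. Of these, Col9a1, Col9a2, Col16a1 and Col11a1 missed the threshold without EV auxin replicate 2 (edgeR adjusted p = 0.103, 0.141, 0.131 and 0.088), and Col9a1, Col16a1 and Col11a1 without EV auxin replicate 1 (0.0687, 0.117 and 0.136). Col16a1 missed it also without FL replicates 1 and 2 (0.0874 and 0.0715), and Col11a1 without FL replicates 2 and 3 (0.0507 and 0.0873). Col18a1 rose 1.13-fold (edgeR adjusted p = 0.0285, 0.2 and 0.076 without EV auxin replicates 1 and 2, 0.106 and 0.0765 without FL replicates 1 and 3).

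**Figure D4:**
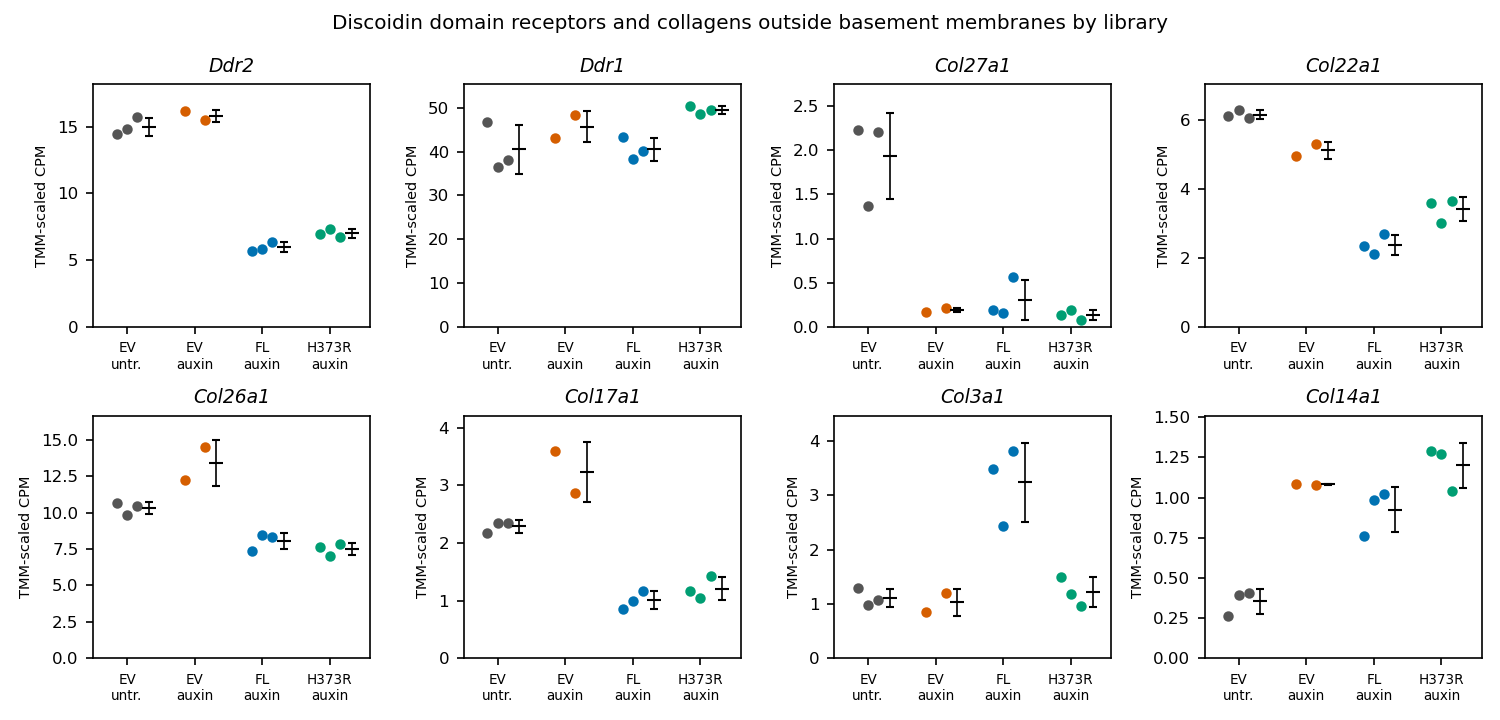
Discoidin domain receptors and 6 collagens found mainly outside basement membranes, in TMM-scaled CPM by group; points are libraries and bars the mean ± SD. Ddr2, Col17a1, Col22a1 and Col26a1 are lower in all FL and H373R libraries than in any EV library, Col27a1 is highest in the 3 EV untreated libraries, and Col3a1 is highest in the 3 FL libraries.

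The third comparison set H373R CTCF against EV auxin. Of the core genes named for FL, Lamc1 and Hspg2 did not pass; Col4a1, Col4a2, Lama1, Lamb1, Nid1, Nid2 and Serpinh1 rose, and Ddr2, Col17a1, Col26a1 and 3 collagen VI chains fell. Of 52 members 8 rose and 11 fell, 36.5% in all, beside 21.7% of all tested genes (10% higher and 11.7% lower). The median log2 fold change was 0.03 over members and 0.00 over all genes, and the median size of the change was 0.33 and 0.18. The count was 23 without EV untreated replicate 1, where that over all genes went from 3570 to 5397, and 12 without EV auxin replicate 2, where it was 1536.

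Lama1 had 150.3, 136 and 123 CPM in H373R libraries, 1.57-fold above EV auxin (log2 fold change 0.65 ± 0.0748, SE; edgeR adjusted p = 6.4e-05). Lamb1 had 267, 243 and 243 CPM and was 1.28-fold higher (edgeR adjusted p = 0.000501). Lamc1, with 658, 605 and 579 CPM, overlapped the EV auxin libraries and did not pass (edgeR adjusted p = 0.186). Col4a1 had 142, 132 and 127 CPM and rose 1.41-fold (edgeR adjusted p = 0.000395), and Col4a2 had 76.4, 69.9 and 65.8 CPM and rose 1.57-fold (edgeR adjusted p = 0.000654). Every H373R library lay above every EV library for these collagen IV chains and for Lama1 and Lamb1, and below every FL library. Serpinh1 had 143, 143 and 151 CPM and rose 1.32-fold (edgeR adjusted p = 0.00273). Nid1 had 243, 239 and 223 CPM and rose 1.23-fold (edgeR adjusted p = 0.00258), and Nid2 had 606, 565 and 556 CPM and rose 1.28-fold (edgeR adjusted p = 0.000238). Hspg2 had 266, 199 and 227 CPM and was not called (edgeR adjusted p = 0.0696), nor was Lama5 with 173, 145 and 151 CPM (edgeR adjusted p = 0.117) or Sparc with 366, 367 and 356 CPM (edgeR adjusted p = 0.42).

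Lama3 had 17.0, 19.1 and 16.7 CPM and fell 1.33-fold (edgeR adjusted p = 0.00639, and 0.149 without EV auxin replicate 2). Lamb3 had 8.30, 9.34 and 8.27 CPM and was not called (edgeR adjusted p = 0.595). Col6a5 had 6.02, 5.28 and 5.85 CPM and fell 1.53-fold (edgeR adjusted p = 0.00345), Col6a4 fell 1.41-fold (edgeR adjusted p = 0.00733, and 0.097 without EV auxin replicate 1), and Col6a6 fell 1.5-fold. The Col6a6 call was lost in 14 alternatives (edgeR adjusted p = 0.0482, 0.0534 without EV untreated replicate 3, 0.243 and 0.126 without EV auxin replicates 1 and 2, 0.0542, 0.0587 and 0.0635 without FL replicates 1, 2 and 3, 0.118 and 0.19 without H373R replicates 2 and 3). Col17a1 fell 2.61-fold (edgeR adjusted p = 0.000194), Col26a1 1.79-fold (edgeR adjusted p = 8.72e-05), and Col22a1 1.5-fold (edgeR adjusted p = 0.0048, and 0.0743 without EV auxin replicate 2). Col11a1, Col9a1 and Col5a2, fibrillar and fibril-associated chains, completed the 11 that fell, at edgeR adjusted p = 0.0128, 0.0176 and 0.0498. All 3 missed the threshold without EV auxin replicate 1 (0.099, 0.0884 and 0.197), EV auxin replicate 2 (0.0591, 0.116 and 0.165) or H373R replicate 3 (0.0565, 0.0808 and 0.0857), and Col5a2 also in 5 other fits that left out a library (0.0564 to 0.163).

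H373R and FL libraries were then compared directly, which tests the difference between these groups. Of the core genes named for FL, Col4a1, Col4a2, Lama1, Lamb1, Lamc1 and the chaperone Serpinh1 were lower with H373R. Nid1, Nid2 and Hspg2 did not pass, and Lamb3 and Col22a1 were higher. Of 52 members 3 were higher and 7 lower with H373R, 19.2% in all, beside 5.96% of all tested genes (3.14% higher and 2.82% lower). The median log2 fold change was 0.04 over members and 0.00 over all genes, and the median size of the change was 0.20 and 0.11. The count was 16, and that over all genes went from 979 to 2323, without EV untreated replicate 1, which enters this comparison only through the shared estimate of the spread.

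Col4a1 was 1.46-fold lower with H373R (log2 fold change -0.54 ± 0.0646, SE; edgeR adjusted p = 0.000109) and Col4a2 1.53-fold lower (log2 fold change -0.61 ± 0.0896, SE; edgeR adjusted p = 0.00074). Lama1 was 1.44-fold lower (edgeR adjusted p = 0.000146), Lamb1 1.20-fold lower (edgeR adjusted p = 0.00369) and Serpinh1 1.38-fold lower (edgeR adjusted p = 0.00088). In all 5 genes the 3 H373R libraries lay below the 3 FL libraries. Lamc1 was 1.15-fold lower (edgeR adjusted p = 0.021, 0.0659 and 0.0748 without FL replicates 1 and 2, 0.0915 and 0.103 without H373R replicates 2 and 3). Col3a1 was 2.74-fold lower (edgeR adjusted p = 0.000671), with 1.22 ± 0.274 CPM in H373R libraries. The primitive endoderm markers, with the sums given above, were lower for 6 of 16 and higher for 0 of 16 in this comparison. Of all tested genes 2.82% were lower and 3.14% higher. The part of these markers in the result was not tested here either.

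Lamb3 was 1.52-fold higher with H373R (edgeR adjusted p = 0.0297), with no overlap, but its call was lost without FL replicates 2 and 3 (edgeR adjusted p = 0.0995 and 0.146) and without H373R replicates 1, 2 and 3 (0.071, 0.113 and 0.0801). Col22a1 was 1.43-fold higher (edgeR adjusted p = 0.0386), a call lost in 11 alternatives, with 0.0516 without EV untreated replicate 3, 0.0537 and 0.058 without EV auxin replicates 1 and 2, 0.11, 0.133 and 0.052 without FL replicates 1, 2 and 3, and 0.121 and 0.157 without H373R replicates 1 and 3. Nid1 (edgeR adjusted p = 0.232), Nid2 (edgeR adjusted p = 0.234), Hspg2 (edgeR adjusted p = 0.318) and Ddr2 (edgeR adjusted p = 0.183) did not pass, which does not show that their levels were alike. Nid2 lay the other way from the called core genes, with 606, 565 and 556 CPM in H373R and 548, 541 and 529 in FL libraries.

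**Figure D5:**
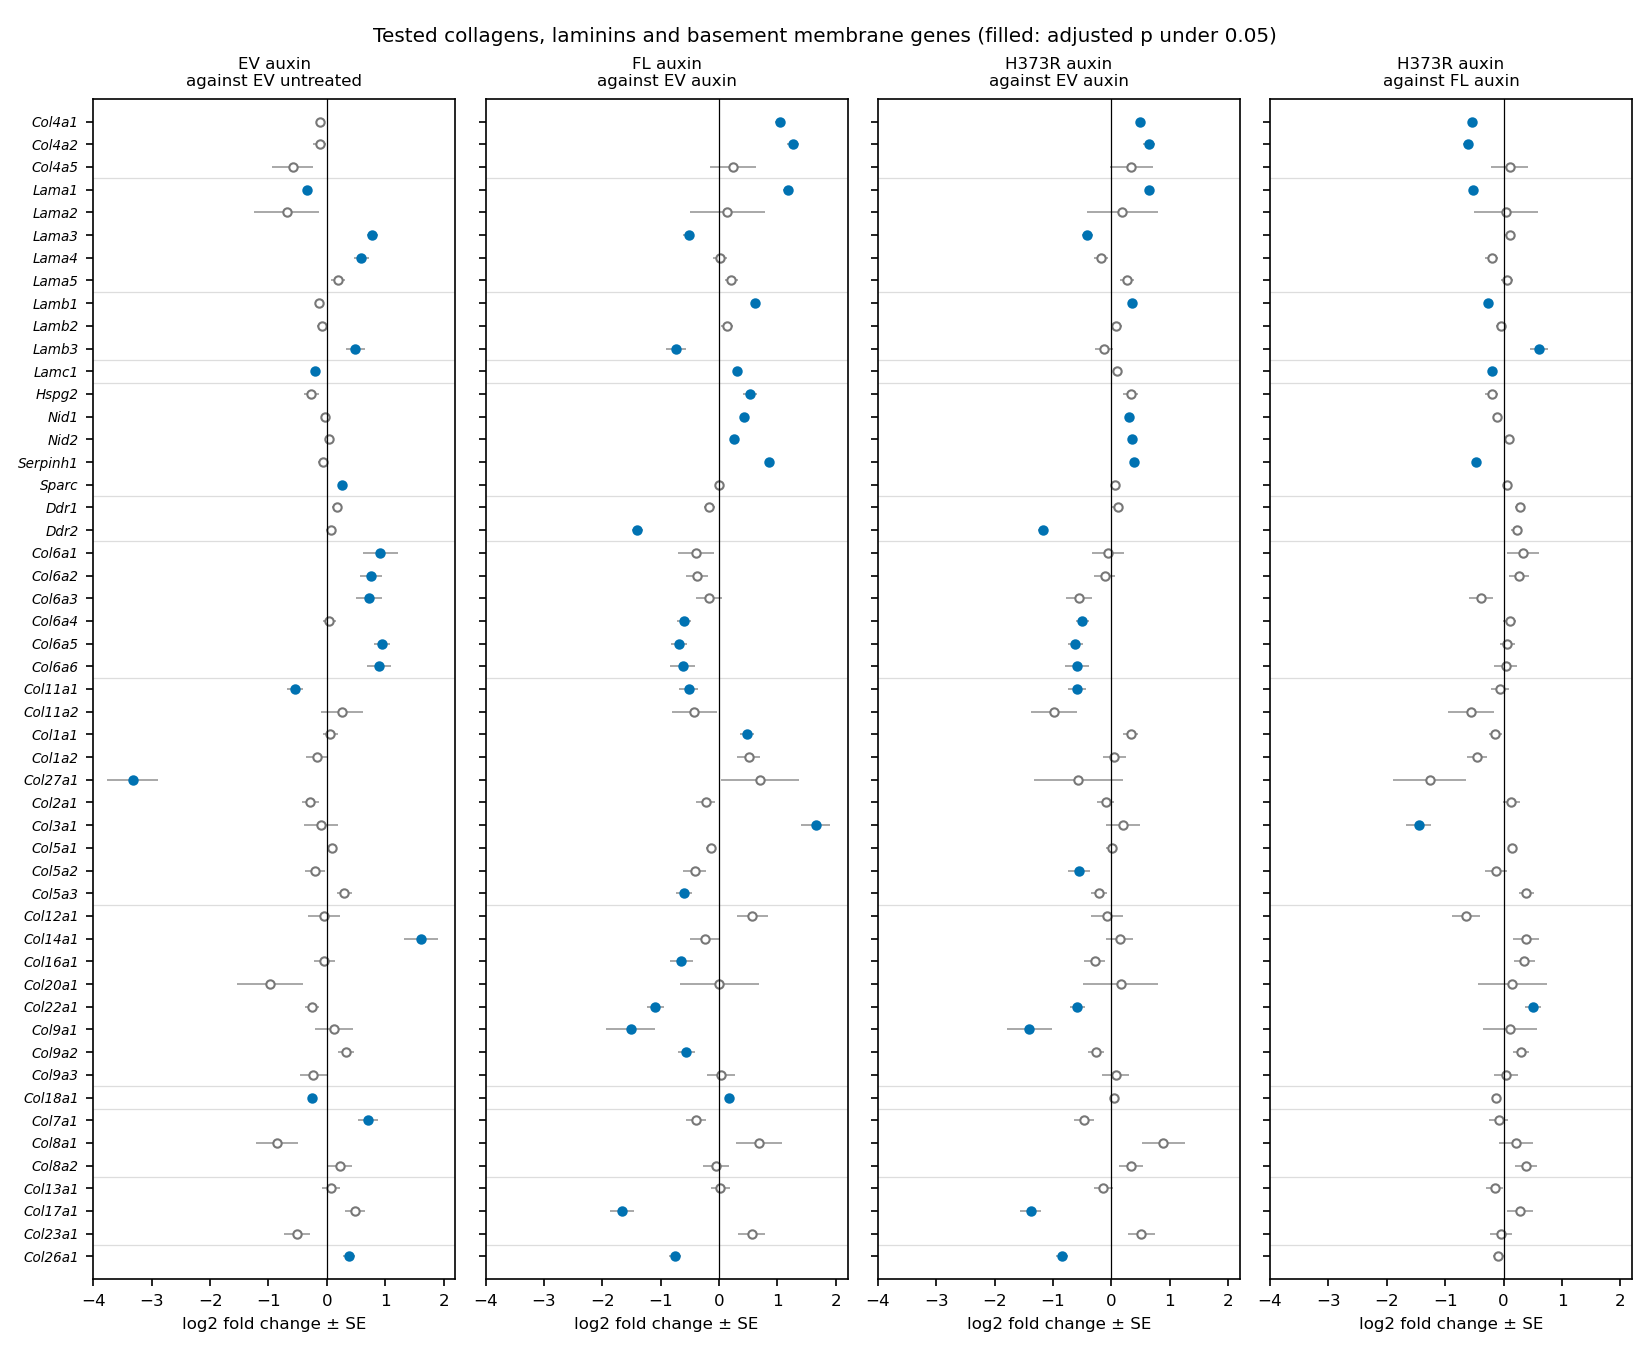
Log2 fold change ± SE (horizontal axis) of 51 of the 52 tested genes, grouped by class, in 4 comparisons; filled points passed an adjusted p under 0.05 by edgeR. Col4a1, Col4a2 and Lama1 lie to the right of 0 in both comparisons with EV auxin and to the left in H373R against FL, while Ddr2 lies far to the left in both comparisons with EV auxin.

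Against EV untreated, the only group not given auxin, members were called in both reintroduction groups. With FL 15 rose and 11 fell, 50% in all, beside 36.9% of all tested genes (17.7% higher and 19.2% lower), and with H373R 19 rose and 11 fell, 57.7% in all, beside 44.4% (22.3% higher and 22.1% lower). Without EV untreated replicate 1 the counts were 29 and 31, while those over all genes went from 6052 to 7706 and from 7292 to 8927. The median log2 fold changes over members were 0.09 and 0.08, and 0.00 over all genes in both. Both contrasts share the EV untreated libraries.

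Col4a1, Col4a2 and Lama1 were above untreated with FL, by 1.90-fold, 2.2-fold and 1.79-fold (edgeR adjusted p = 9.97e-08, 3.71e-07 and 2.63e-07), and with H373R by 1.31-fold, 1.44-fold and 1.24-fold (edgeR adjusted p = 0.00021, 0.000281 and 0.00106). Lamb1, Nid1, Nid2 and Serpinh1 were also above untreated in both, by 0.22 to 0.79 on the log2 scale. Lamc1 was not called in either (edgeR adjusted p = 0.13 and 0.0882). Nor was Hspg2, which had 261, 214 and 186 CPM in EV untreated libraries. The first of these lay above FL replicates 2 and 3, with 255 and 258 CPM. Lama5 had 138, 106 and 97.9 CPM in EV untreated libraries and was higher by 1.32-fold with FL and 1.37-fold with H373R (edgeR adjusted p = 0.00684 and 0.00212), and EV untreated replicate 1 was the highest of its group. Sparc stayed above untreated in both, at 1.19-fold and 1.24-fold (edgeR adjusted p = 0.000204 and 1.93e-05). Ddr2 was 2.51-fold and 2.14-fold lower (edgeR adjusted p = 5.15e-08 and 6.04e-08). Col27a1 had log2 fold changes of -2.62 and -3.89 (edgeR adjusted p = 4.14e-05 and 1.77e-06), and Col11a1, which had 4.91 ± 0.266 CPM in EV untreated, was 2.09-fold and 2.19-fold lower (edgeR adjusted p = 1.98e-05 and 4.02e-06). Lama1 was the only member called in all 6 comparisons. Members called in none of the 6 comparisons included Lamb2, Col5a1, Col1a2 and Col13a1.

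Genes that process, bind or cut the same matrix were counted from lists of related genes. Of 29 tested collagen-modifying and crosslinking enzymes, 8 rose and 1 fell after auxin, 9 rose and 2 fell with FL, 11 rose and 2 fell with H373R against EV auxin, and 1 rose with H373R against FL. These were 31%, 37.9%, 44.8% and 3.45% of the list, beside 20.7%, 24.5%, 21.7% and 5.96% of all tested genes, the shares given above. The enzymes that rose with FL included Plod1, Plod2 and Plod3, the lysyl hydroxylases, and Crtap, Ppib and P3h4 of prolyl and lysyl modification complexes. Other genes of the list went down. Mia3 had 158 ± 2.97 CPM in EV auxin, 122 ± 7.59 in FL and 116 ± 3.89 in H373R libraries. Adamts2 had 1.13 ± 0.0140, 0.477 ± 0.183 and 0.643 ± 0.101 CPM in the same groups. P4ha1, a prolyl hydroxylase, had 167 ± 6.21 CPM in EV untreated, 201 ± 0.689 in EV auxin, 225 ± 2.58 in FL and 234 ± 4.28 in H373R libraries and rose after auxin by a log2 fold change of 0.27 (edgeR adjusted p = 0.00085). Loxl1, a lysyl oxidase of elastic fibres, rose from 8.86 ± 1.79 to 15.4 ± 1.5 CPM (edgeR adjusted p = 0.000273), and Pxdn, the peroxidase that crosslinks collagen IV, from 32.9 ± 0.354 to 45.8 ± 1.52 CPM (edgeR adjusted p = 0.000229). Pcolce, which enhances procollagen cleavage, was the 1 that differed between H373R and FL, at 95.8 ± 1.12 against 81.1 ± 3.13 CPM (edgeR adjusted p = 0.0372). That call was lost without any one of the FL replicates 2 and 3, the H373R replicates and the EV auxin replicates, with an edgeR adjusted p of 0.0613 to 0.155.

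Of 19 tested other basement membrane components, 3 rose and 2 fell after auxin, 3 rose and 3 fell with FL, 4 rose and 2 fell with H373R against EV auxin, and 1 rose and 1 fell with H373R against FL, or 26.3%, 31.6%, 31.6% and 10.5% beside the same shares of all genes. Ntn1 (netrin 1, a laminin-related guidance cue) had 24.9 ± 1.96 CPM in EV untreated, 16.4 ± 0.397 in EV auxin, 23.8 ± 4.92 in FL and 15.5 ± 0.934 in H373R libraries. It fell after auxin by 0.60 on the log2 scale (edgeR adjusted p = 0.00342) and was lower by -0.64 in H373R against FL (edgeR adjusted p = 0.00369). Without EV auxin replicate 2 the fall after auxin had an edgeR adjusted p of 0.0567. Tinagl1, a secreted matrix protein, rose after auxin from 4.82 ± 0.682 to 8.17 ± 0.661 CPM (edgeR adjusted p = 0.000764). Smoc2, a matricellular protein related to Sparc, rose from 0.0863 ± 0.0328 to 0.472 ± 0.139 CPM, a very low level (edgeR adjusted p = 0.00356). Mmrn2, an endothelial matrix protein, was higher with H373R than with FL, at 27.7 ± 1.35 against 21.4 ± 1.12 CPM (edgeR adjusted p = 0.0107, 0.0562 without FL replicate 2 and 0.0668 without H373R replicate 1).

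Of 21 tested matrix receptors, 4 rose and 3 fell after auxin, 7 rose and 3 fell with FL, 9 rose and 1 fell with H373R against EV auxin, and 1 rose and 1 fell with H373R against FL, or 33.3%, 47.6%, 47.6% and 9.52% beside those shares. Itga9, an integrin alpha chain, showed the largest fall of the receptors named here, from 17.5 ± 0.831 to 4.34 ± 0.325 CPM after auxin (log2 fold change -2.01 ± 0.106, SE; edgeR adjusted p = 2.92e-09). It had 6.95 ± 0.537 CPM in FL and 3.11 ± 0.220 in H373R libraries, with a log2 fold change of -1.17 between them (edgeR adjusted p = 1.29e-05). Sdc4, a heparan sulfate syndecan, fell after auxin from 89.7 ± 1.65 to 66.5 ± 2.61 CPM (edgeR adjusted p = 3.11e-05) and was at 88.7 ± 1.5 with FL and 91.4 ± 2.68 with H373R. Sdc3, another syndecan, rose after auxin from 6.55 ± 0.314 to 10.2 ± 0.225 CPM (edgeR adjusted p = 0.000197). Bcam, a receptor for the laminin alpha 5 chain, had 59.7 ± 7.90, 82.6 ± 4.44, 86.9 ± 9.41 and 121 ± 1.68 CPM in EV untreated, EV auxin, FL and H373R libraries and was higher with H373R than with FL (log2 fold change 0.48 ± 0.084, SE; edgeR adjusted p = 0.0029). The integrin chains Itga3, Itga5 and Itga6 rose with both forms of CTCF against EV auxin, contrasts that share the EV auxin libraries.

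Of 20 tested matrix proteases and inhibitors, 5 rose and 2 fell after auxin, 5 rose and 2 fell with FL, 3 rose and 1 fell with H373R against EV auxin, and 1 rose and 4 fell with H373R against FL. The shares of the list were 35%, 35%, 20% and 25%, beside 20.7%, 24.5%, 21.7% and 5.96% of all tested genes. With H373R against EV auxin the share was thus near that of all genes. Mmp9, a gelatinase that cuts collagen IV, had 3.82 ± 0.245 CPM in EV untreated, 2.00 ± 0.718 in EV auxin, 5.64 ± 0.765 in FL and 2.49 ± 0.180 in H373R libraries. It rose with FL (log2 fold change 1.56 ± 0.191, SE; edgeR adjusted p = 4.82e-05) and was lower with H373R than with FL (log2 fold change -1.19 ± 0.156, SE; edgeR adjusted p = 0.00026). Its fall after auxin (edgeR adjusted p = 0.00196) had an edgeR adjusted p of 0.0915 without EV auxin replicate 2. Plat, tissue plasminogen activator and also a parietal endoderm marker, rose after auxin from 3.09 ± 0.152 to 6.42 ± 0.0365 CPM (edgeR adjusted p = 9.33e-06) and was at 3 ± 0.255 with FL and 4.8 ± 0.233 with H373R, a difference that passed (edgeR adjusted p = 0.00265). Htra1, a secreted serine protease, had 21.0 ± 0.325 CPM in EV auxin, 36.7 ± 0.845 in FL and 28.8 ± 0.987 in H373R libraries, and was lower with H373R than with FL (edgeR adjusted p = 0.00376).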

How the data were processed

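RNA-seq counts were analysed for 11 libraries in the 4 groups above. The submitters' processing notes name featureCounts, Subread 2.0.3, DESeq2 and the build mm10 (GRCm38), without their roles; the aligner, the annotation and the strand setting are not given in the sources used here. The library kit keeps strand, per the labels' protocols. The authors deposited raw read counts per gene symbol and TPM for the same libraries. Both were read as deposited; no column belonged to other samples.

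Counts were fitted with edgeR 4.0.16 in R 4.3.3 over the whole table: TMM scaling, filterByExpr by group, 1 group-means model over all 11 libraries, the quasi-likelihood F test, and Benjamini-Hochberg adjustment over 16420 genes with a threshold of 0.05. Levels are TMM-scaled CPM with SD. Levels of different genes were compared only on TPM. Folds come from fitted log2 fold changes, given with the model's standard error. The members were matched to GENCODE M21 (all 62 found), and promoter windows came from RefSeq. The members, lists of related genes and markers were chosen with earlier results of these data known. Basement membrane genes, Serpinh1, Sparc, Ddr1 and Ddr2 were always given by library, with up to 8 members per comparison of smallest adjusted p (mean log2 CPM 1 or more). Of each related list up to 3 genes were named after auxin and up to 3 in H373R against FL. Some further genes of the enzyme and receptor lists were named outside this rule.

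Alternatives tried: scaling by RLE or upper quartile; a filter of 10 counts in each library or none; DESeq2 1.42.0; limma 3.58.1 on log2(TPM + 1), keeping genes with TPM 1 or more in 2 libraries, then with pseudocount 0.1 and then unfiltered; fits of the compared libraries alone; a replicate block; thresholds of 0.01 for adjusted p and 1 for log2 fold change; and each library left out in turn. Scripts were tested on simulated counts. Some genes counted in the lists are not reported here by name.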

Additional observations from a re-analysis of the deposited data

How the results depend on the processing

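Over 129 called member results and 2675 values under alternative fits, 2458 kept the call, 217 lost the threshold and 0 changed sign. In this tally 85 results never lost it. The stricter thresholds for adjusted p and log2 fold change were left out of the tally. Fits in which a gene was filtered out or had no adjusted p were left out too. Most losses came from limma on TPM (19 to 27 per setting), DESeq2 (16), and leaving out EV auxin replicate 1 or 2 (22 and 24), where the arm keeps 1 library; scaling by RLE or upper quartile lost 2 and 1. The number of members called ranged from 11 to 21 over the fits that leave out a library for EV auxin against EV untreated, 18 to 28 for FL against EV auxin, 12 to 23 for H373R against EV auxin, 7 to 16 for H373R against FL, 25 to 29 for FL against EV untreated and 28 to 31 for H373R against EV untreated. Requiring a log2 fold change of at least 1 left 2, 8, 3, 1, 9 and 5 members in that order, since most changes are smaller. limma on log2(TPM + 0.1) called 11 in the first, and limma without a TPM filter 5 in H373R against FL; the cause was not tested. Over all genes the counts of 3392, 4016, 3570, 979, 6052 and 7292 became 1939, 2169, 1843, 436 and 3980 in the first 5 at an adjusted p under 0.01, and 560, 395, 142, 78, 664 and 840 at a log2 fold change of at least 1. With only the libraries compared they were 2016, 5909 and 1815 in the first, the third and the fourth, with limma and no TPM filter 2234 and 586 in the third and the fourth, and without single libraries 1569 to 5444, 1879 to 5800, 1502 to 5397 and 510 to 2323 in the first 4.

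Whether replicate numbers pair the libraries was not settled by these values. Of 15 same-numbered pairs, 3 had deviations correlated over 0.1, with a range of -0.087 to 0.282. Of 11 libraries, 7 correlated best with their own number. With the replicate number as a replicate block, 17, 25, 22, 9, 29 and 30 members were called. Genes under about 1 CPM in at least 1 group, such as Col27a1, Col14a1, Col9a1 and Col6a1, rest on few counts per library there. DESeq2 gave Col9a1 no adjusted p in 2 comparisons.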
